A study of Mus musculus with 4 samples.

Results

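The 10 genes described here encode proteins that copy, transcribe or look after the messages of mitochondrial DNA, together with 1 nuclear coactivator of mitochondrial genes. They were chosen by symbol: Tfam, Polrmt, Tfb2m, Tefm, Lrpprc, Slirp, Polg, Twnk, Ssbp1 and Ppargc1a. All 10 were among the 32285 genes counted. Mouse kidney was dissociated to single cells, which were sorted as viable with a dye and profiled with droplet 3′ single-cell RNA-seq. Of the 4 libraries, 2 came from mice whose mitochondrial DNA carries a point mutation in the glutamate transfer RNA gene TrnE, with labelled mutation loads of 79% (mutant 1) and 76% (mutant 2), and 2 came from wild-type C57BL/6J mice. Age and sex of the mice were not given in the labels. The comparison asks in which kidney cell types these nuclear genes are expressed, and whether their messages differ in cells that carry the mitochondrial mutation.

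Mitochondrial DNA is a small circle that encodes respiratory chain subunits, ribosomal RNAs and transfer RNAs, and everything needed to copy and read it is imported. TFAM packages the circle and bends the promoters, POLRMT is the RNA polymerase, TFB2M opens the promoter with it, and TEFM keeps the polymerase moving. POLG is the DNA polymerase, TWNK the helicase ahead of it, and SSBP1 the protein that coats the single strand between them. LRPPRC and SLIRP form a complex that stabilises mitochondrial messenger RNAs. PPARGC1A (PGC-1α) has no DNA-binding domain of its own and acts through nuclear factors such as NRF1, GABPA and the estrogen-related receptors to raise the expression of mitochondrial genes. Kidney tubules do much of their salt and solute transport with energy from respiration and are rich in mitochondria.

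Because those nuclear factors are the known link between PPARGC1A and the other members, the start-site windows of the 10 genes were searched for their motifs. RefSeq windows of 300 bases (build GRCm38.p6, 250 before to 50 after each start) were found for 10 of 10 members, with both strands searched. The NRF1 motif, the only one of 10 letters, was present in 4.60% of all 32851 windows. Windows with the ETS motif bound by GABPA, CCGGAAGT, made up 3.89%, and those with the estrogen-related receptor motif, AAGGTCA, 4.72%. A gene can have several windows. Counted per gene, as the members are here, the shares of 27025 genes were 5.19% (NRF1), 4.31% (ETS) and 5.38% (receptor). The ETS motif lay in windows of 4 members (Tfam, Tefm, Polg and Twnk), the NRF1 motif in that of Polrmt, where 2 matches overlap, and the receptor motif in a second Twnk window. The stretches below show the matches in capitals, on the gene's own strand, and the 120 bases before the start of Ppargc1a, which held none of the 3 motifs.
Tfam, ETS motif, chr10:71238073-71238102, minus strand: cctgccgcggaCCGGAAGTccgggcttccc
Tefm, ETS motif, chr11:80142144-80142173, minus strand: agcacacgaaaCCGGAAGTtgaggaggaac
Polg, ETS motif, chr7:79466293-79466322, minus strand: gaggacctcacCCGGAAGTccctctgcacc
Twnk, ETS motif on the opposite strand, chr19:45006436-45006465, plus strand: actaaccggtgACTTCCGGttccggggttg
Twnk, receptor motif, chr19:45005529-45005558, plus strand: agggtattcacAAGGTCActgcacctagct
Polrmt, first NRF1 match, on the opposite strand, chr10:79746568-79746597, minus strand: cctgcaggcgGCGCGTGCGCgtgcgcactg
Ppargc1a, no match, chr5:51567726-51567845, minus strand: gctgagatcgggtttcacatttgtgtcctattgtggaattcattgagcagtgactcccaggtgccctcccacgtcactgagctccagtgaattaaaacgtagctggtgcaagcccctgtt
A match describes these letters only. The windows without any of the 3 motifs (Tfb2m, Lrpprc, Slirp, Ssbp1 and Ppargc1a) say nothing about whether the factors act there.

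The libraries held 42121175 to 70013861 unique molecular identifiers (UMIs, each standing for 1 captured message) in 7242 to 11744 barcodes. After filtering, 30288 cells with median depths of 4358 to 6454.5 UMIs per library fell into 34 clusters, of which 32 were named as 13 cell classes from marker genes. Any pair of libraries shared 13 to 20 barcodes. Wild type 2 stood apart from the other 3 libraries: macrophages made up 0.877% of its cells against 14.3% to 29.2% elsewhere, and proximal tubule 47.9% against 12.3% to 28.6%. It also stood apart in the counted balance between mitochondrial messages of the light and heavy strands. The mitochondrial messenger RNA mt-Nd6, the one message encoded on the light strand, counted 22.5 UMIs per 10000 UMIs of the 12 heavy-strand messages in wild type 2, over all cells. In mutant 1 this value was 2.32, in mutant 2 it was 3.72 and in wild type 1 it was 3.91. Across the 9 tested classes the ratio ran from 16.4 to 23.7 in wild type 2, 2.18 to 5.40 in wild type 1, 0.404 to 2.89 in mutant 1 and 1.94 to 4.52 in mutant 2, so that wild type 1 lay with the mutants. The mt-Nd6 folds between genotypes, -2.06 to -1.13 on the log2 scale, passed the threshold of 0.05 in 0 of 9 classes (edgeR, Benjamini-Hochberg adjusted p = 0.176 to 0.983; 7 at an unadjusted p under 0.05), and they rest on wild type 2. The transfer RNA itself is not among the counted features, so the labelled genotypes could not be checked here. The deposited names of mutant 2 and wild type 1 share a prefix that wild type 2 lacks.

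**Figure D1:**
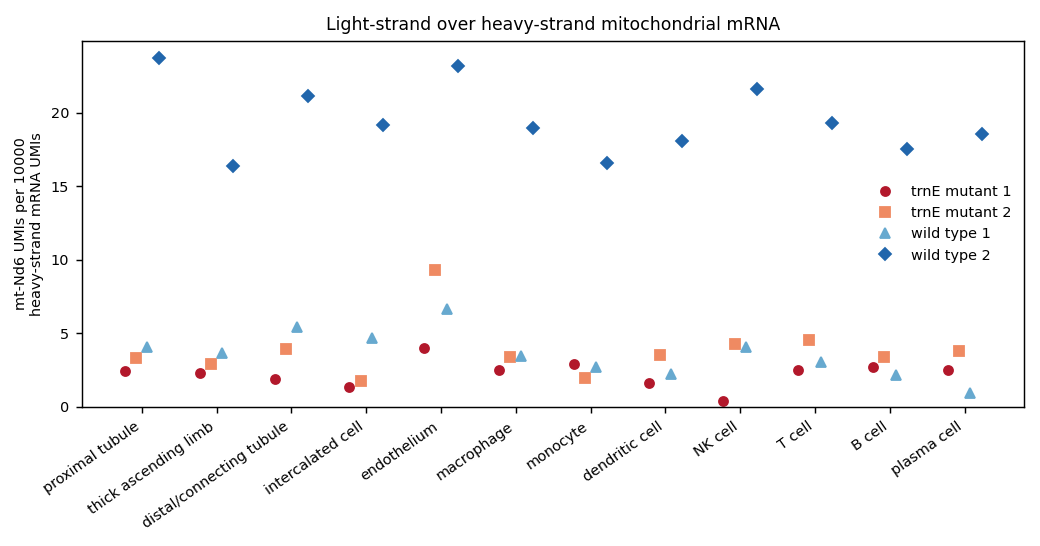
UMIs of mt-Nd6, the light-strand message, per 10000 UMIs of the heavy-strand messages (y axis) in 12 cell classes (x axis), with 1 point per library. Wild type 2 lies above the other 3 libraries in every class shown. Wild type 1 lies nearer to the mutants, above both in the tubule classes and macrophages, and between or below them in the others.

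Levels are given as counts per 1000000 UMIs of the class (CPM), summed over the cells of a library. Since each message is counted once from its 3′ end, no correction for length was made, and no gene is compared with another by level. Classes are clusters of these same cells, so levels between classes are described with no test. Of 110 steps between neighbours in the order of the 12 classes, 106 had ranges over the 4 libraries that overlapped. The classes were sorted by these same values, so the overlaps describe neighbours alone. Plasma cells, the antibody-secreting end of the B lineage, held the lowest mean of 7 of the 10 members. The class had only 21 cells in wild type 1 and 34 in mutant 2. Immunoglobulin messages were among its top genes, and CPM is a share of all UMIs, so a low value there need not mean fewer messages per cell.

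Among the genes of the transcription apparatus, Tefm, the elongation factor, had its 4 highest means in the tubule. Its mean over the 4 libraries was 20.5 CPM in distal convoluted and connecting tubule, 19.1 in intercalated cells, 18.8 in proximal tubule and 17.3 in thick ascending limb. The next class, dendritic cells, had 8.38 CPM, with a highest library of 10.2, below the lowest thick ascending limb library of 12.8. Intercalated cells were uneven, at 21.6 to 28.1 CPM in 3 libraries and 2.86 in wild type 2, within the range of the immune classes. Tfb2m had the same 4 classes on top, at 37.6 to 48.9 CPM against 24.8 in the next, natural killer (NK) cells, where the libraries spread from 9.19 to 43.5. Tfam, by contrast, was spread over tubule and lymphocytes alike. It averaged 53.8 CPM in B cells and 45.2 in T cells, against 51.0 in thick ascending limb and 34.7 in proximal tubule, and it was lowest in plasma cells (15.7) and the myeloid classes (22.3 to 24.6). Polrmt was sparsely counted, from 2.34 CPM in monocytes to 14.2 in endothelium.

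Lrpprc and Slirp, whose proteins work as 1 complex, were both high in proximal tubule but not alike elsewhere. Lrpprc averaged 76.4 CPM in proximal tubule and 75.7 in intercalated cells, and its lowest library there (58.4) lay above every thick ascending limb library (37.4 to 51.5). In distal convoluted and connecting tubule it reached only 24.9 CPM, close to T cells at 27.2. Slirp was at 103 CPM in that same distal class, 100.3 in proximal tubule, 98.4 in intercalated cells and 86.7 in thick ascending limb, with no overlap between the last and endothelium at 54.0.

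The replication genes did not share an order. Polg, the polymerase gene, averaged 28.4 CPM in endothelium, 20.8 in B cells and 20.8 in T cells, and 11.9 in proximal tubule. Twnk, the helicase gene, had its highest mean in proximal tubule (12.7 CPM) and stood at 4.33 in T cells and 4.76 in B cells. Ssbp1 was close to even, from 44.0 CPM in plasma cells to 107 in intercalated cells. Over the 9 classes with enough cells to test, the mean log2(CPM + 1) of Polg and Slirp had a Pearson correlation of -0.72 and that of Tefm and Slirp 0.95, the lowest and highest of 45 pairs. These 9 points share libraries and depth, and the values are a description.

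Ppargc1a was highest in the tubule. It averaged 368 CPM in thick ascending limb, the salt-reabsorbing segment marked by Slc12a1 and Umod, then 169 in intercalated cells, 119 in proximal tubule and 86.0 in distal convoluted and connecting tubule. These 4 neighbours overlapped in range, and below them lay the widest step of any member, 14.7-fold down to endothelium at 5.86 CPM. In 6 immune classes it stood at 0.335% to 6.29% of the proximal tubule level of the same library (median 1.29%), beside 0.315% to 3.56% (median 1.30%) for the summed proximal tubule markers, which those cells should lack. Library by library these shares did not always match. They were 6.29% for Ppargc1a against 2.92% for the markers in NK cells of mutant 1, and 0.335% against 0.907% in T cells of wild type 1. Whether the immune values are free RNA or low expression was not tested. For comparison, Polg stood at 58.6% to 238% and Tfam at 55.7% to 223% of their proximal tubule levels in the same cells. Among 9633 genes, those closest to Ppargc1a in mean log2(CPM + 1) over the 9 classes were Tom1l1 (Pearson r = 0.996), Lamb1 (0.996), Pde1a (0.995), Adgra3 (0.994) and Lama5 (0.993).

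**Figure D2:**
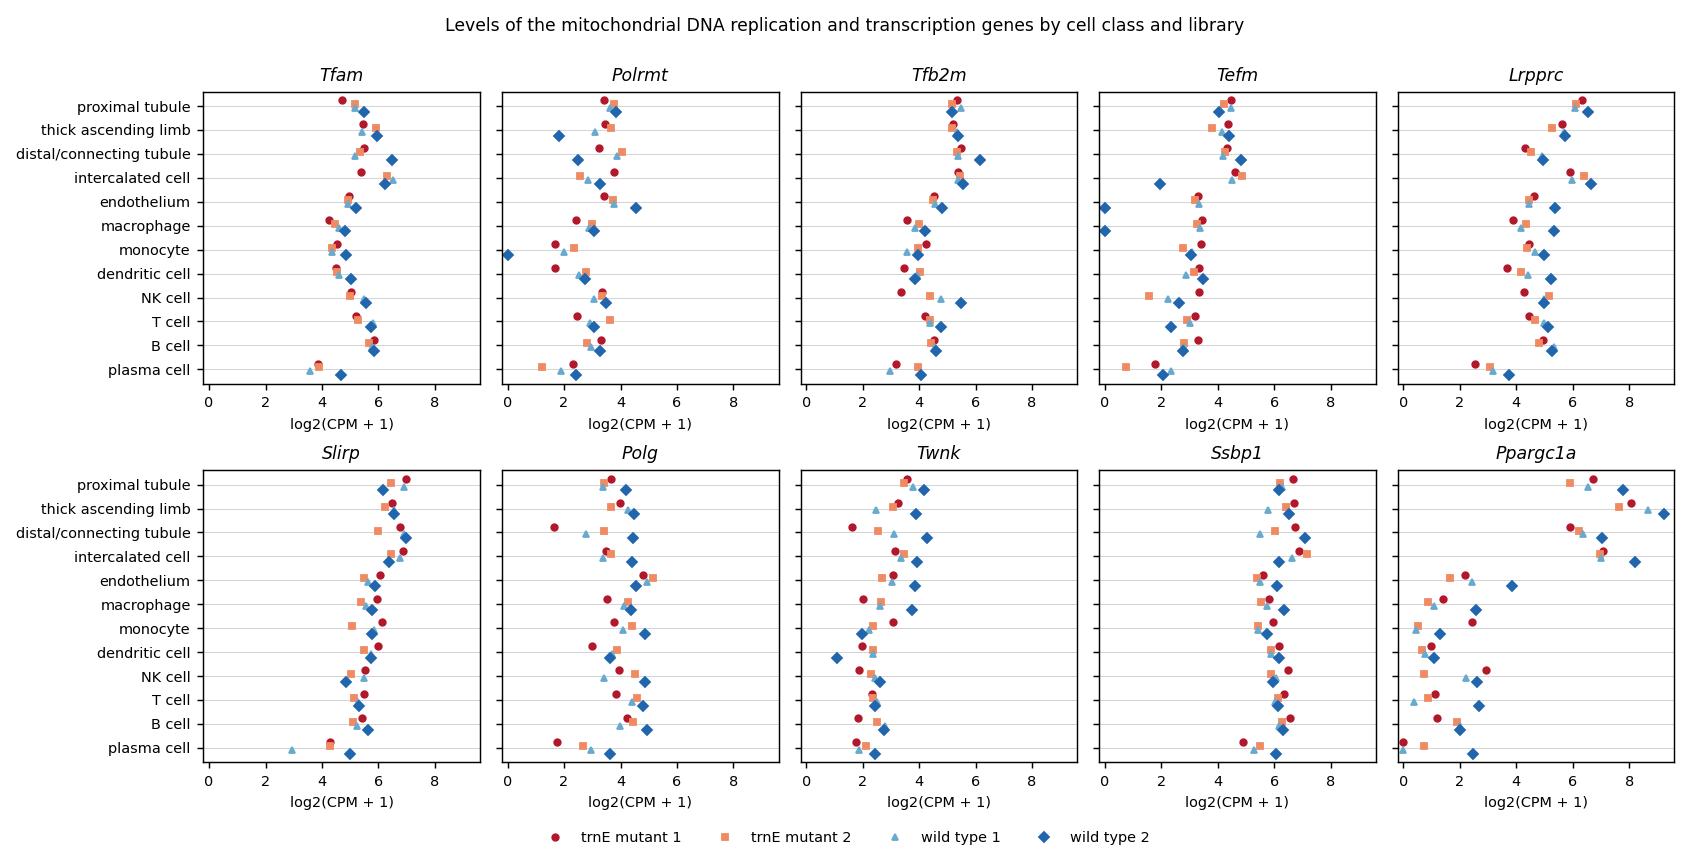
Level of each member on a log2(CPM + 1) scale (x axis) in 12 cell classes (y axis), with 1 point per library. Ppargc1a separates the 4 tubule classes from the others, while Ssbp1 has the narrowest range of class means, 2.44-fold from highest to lowest.

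Mutant and wild-type libraries were compared in the 9 classes with at least 50 cells in each library: thick ascending limb, proximal tubule, distal convoluted and connecting tubule, macrophage, monocyte, dendritic, NK, T and B cells. None of the 10 members passed the threshold in any of them. Of 90 gene and class pairs, 74 had enough counts to test, 0 of these had an adjusted p under 0.05, and 1 had an unadjusted p under 0.05 (edgeR quasi-likelihood test, Benjamini-Hochberg over all genes of the class). DESeq2 called 0 as well. The share of all tested genes called was 0.736% in proximal tubule, 0.183% in thick ascending limb, 0.0216% in monocytes, 0.0161% in macrophages and 0.0% in the other 5 classes, so that few genes of any kind passed with 2 mice a group. No more than the spread between these libraries is measured by the p-values. The 95% interval of the fold stayed within 2-fold either way for 35 pairs and within 4-fold for 73. Differences beyond 2-fold thus lie outside the interval in 35 pairs, and in the other pairs a difference of that size is not excluded. An unadjusted p under 0.05 was reached by 9.25% of all genes in proximal tubule, 3.58% in T cells, 3.71% in B cells, 4.2% in distal convoluted and connecting tubule, 2.99% in monocytes, 4.23% in dendritic cells, 5.24% in macrophages and 4.38% in NK cells, and by 0 members in each.

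Folds were 41 times positive and 33 times negative after scaling by the trimmed mean of M-values (TMM), with a largest size of 0.96 on the log2 scale. The CPM values lean lower in mutants for genes in general: scaled by library totals alone, the median fold of all genes was -0.30 to -0.13 over the classes. In proximal tubule 22.8% of all genes had both mutants below both wild types and 15.3% the reverse. The folds are therefore reported relative to TMM, and signs of folds near 0 turn with the scaling.

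**Figure D3:**
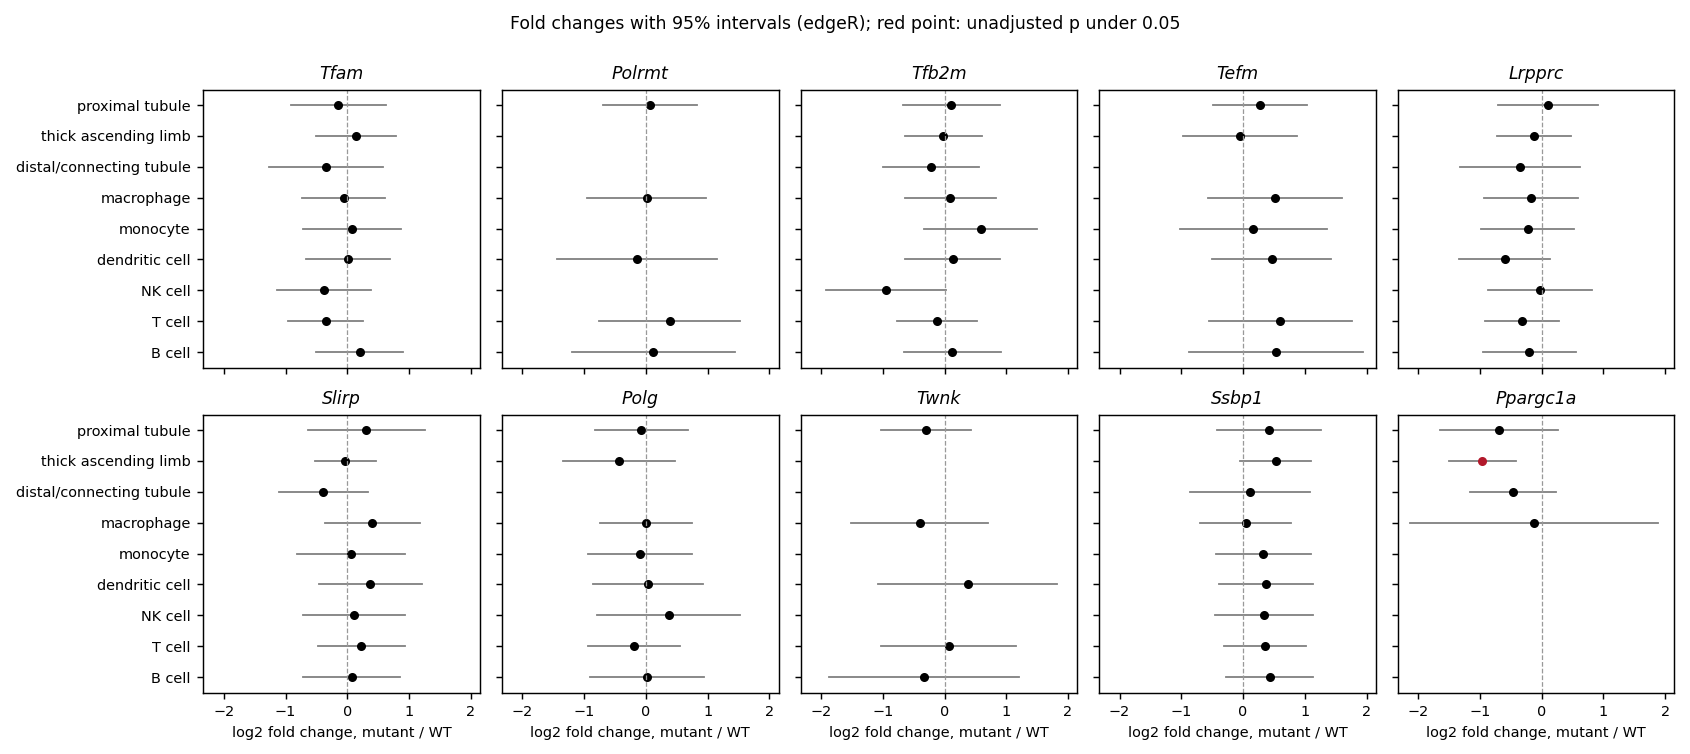
Log2 fold change of each member, mutant over wild type (x axis), with its 95% interval, in each tested class (y axis; pairs without enough counts are blank). All but 1 of the 74 intervals include 0, the exception being Ppargc1a in thick ascending limb, at -0.96.

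Tfam, the packaging factor, had folds from -0.37 in NK cells to 0.20 in B cells, with T cells and distal convoluted and connecting tubule both at -0.35. Both mutants were lower in 4 of 9 classes: T, NK and dendritic cells and macrophages, where 27.3% to 33.8% of all genes did so. In T cells it counted 35.8 and 37.7 CPM in the mutants against 55.6 and 51.8 in the wild types. Both mutants were lower, with a gap wider than the spread inside either pair. The fold after TMM scaling was -0.35 ± 0.26 (SE; edgeR adjusted p = 0.748). NK cells gave 31.5 and 31.1 against 43.6 and 46.1 CPM, again without overlap, with a fold of -0.37 ± 0.36 (edgeR adjusted p = 0.819). In B cells, the third lymphoid class, the groups overlapped, at 56.4 and 49.4 against 53.6 and 55.9 CPM. In proximal tubule mutant 1 was lowest (25.3) and wild type 2 highest (44.0), with mutant 2 and wild type 1 (34.6) nearly level between them.

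Among its partners, Tfb2m in NK cells counted 9.19 and 20.1 CPM in the mutants against 26.6 and 43.5. The groups did not overlap, but each pair spread more widely than the gap between them. Its fold of -0.95 ± 0.46 was the second largest of all pairs and did not pass (edgeR adjusted p = 0.810), and the class rests on 51 cells in wild type 2. Elsewhere Tfb2m folds ran up to 0.58, in monocytes. Tefm had positive folds in 6 of 7 classes tested, largest in T cells (0.60 ± 0.48), where the mutants had 8.16 and 6.58 CPM and the wild types 7.11 and 4.10. These are few messages, and the groups overlapped. Tefm in B cells was the only pair in which both mutants lay above both wild types, where 10.1% of all genes did so. Polrmt folds, in the 5 classes tested, lay between -0.14 and 0.38.

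Lrpprc was the member most often lower in both mutants, in 6 of 9 classes, where 22.5% to 33.6% of all genes did so. It had a negative fold in 8 of 9 (9 of 9 with library totals). These classes come from the same libraries and are not repeats. In T cells the mutants had 20.8 and 24.1 CPM and the wild types 30.3 and 33.6, without overlap, for a fold of -0.31 ± 0.25 (edgeR adjusted p = 0.748). Dendritic cells had 11.8 and 16.9 against 20.5 and 36.3 CPM, with wild type 2 far above the rest, for a fold of -0.60 ± 0.33 (edgeR adjusted p = 0.663). Distal convoluted and connecting tubule had 18.9 and 21.8 against 29.0 and 29.7 CPM. In proximal tubule, where Lrpprc is highest, the groups overlapped fully, at 78.4 and 68.1 against 66.7 and 92.4 CPM. None of these folds passed the test. The Slirp fold was positive in 7 of 9 classes, 4 of 9 with library totals and 4 of 9 without wild type 2. Without mutant 1 it was positive in 1 of 9 and negative in 8, the direction of Lrpprc. The sign of the Slirp fold thus depends on mutant 1, on wild type 2 and on the scaling. In proximal tubule Slirp counted 125 and 87.0 CPM in the mutants against 118 and 71.1, so that the first library of each genotype was high and the second low. The share of a mitochondria-poor cluster, the proximal tubule cluster with the highest pooled Slirp (175 CPM), followed the same order of libraries. It held 40.6% and 19.5% of the proximal tubule cells of the mutants and 23.6% and 11.7% of those of the wild types. Its part in the Slirp levels was not tested.

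None of the replication genes passed either. Ssbp1 had a positive fold in 9 of 9 classes (7 of 9 with library totals and 5 of 9 without mutant 1), yet the groups overlapped in CPM in all 9. Its largest fold, in thick ascending limb, was 0.53 ± 0.26 (edgeR adjusted p = 0.319), from 104 and 85.5 CPM in the mutants against 54.2 and 90.4 in the wild types, where wild type 1 alone was low. Twnk in proximal tubule counted 10.7 and 10.0 CPM in the mutants against 12.7 and 17.2. It was the only member there with both mutants below both wild types, as were 22.8% of all genes. The Twnk fold was -0.30 ± 0.34 (edgeR adjusted p = 0.760). Polg had folds from -0.44 in thick ascending limb to 0.37 in NK cells, with intervals across 0.

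Non-overlap was read against its share among all tested genes. Both mutants were lower for 4 of 9 members tested in T cells (27.3% of all genes), 3 of 9 in B cells (31.9%), 5 of 8 in thick ascending limb (32.6%), 3 of 6 in distal convoluted and connecting tubule (22.5%) and 2 of 6 in NK cells (28.2%). The counts were 2 of 9 in dendritic cells (33.6%), 1 of 7 in monocytes (27.8%), 1 of 10 in macrophages (33.8%) and 1 of 10 in proximal tubule. The reverse, both mutants higher, was met by the Tefm pair in B cells alone. Among all genes it was met by 11.5% in T cells, 16.9% in thick ascending limb, 9.88% in distal convoluted and connecting tubule, 12.0% in monocytes, 11.9% in dendritic cells, 12.3% in macrophages and 14.0% in NK cells.

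Ppargc1a in thick ascending limb was the one pair with an unadjusted p under 0.05, a level that 17.2% of the genes of that class reached. Mutant 1 counted 219 UMIs in 112 cells (269 CPM), mutant 2 counted 185 in 148 cells (198 CPM), wild type 1 counted 270 in 106 cells (406 CPM) and wild type 2 counted 476 in 95 cells (598 CPM). Both mutants were lower than both wild types, and the exact 95% Poisson intervals of the highest mutant (234 to 307 CPM) and the lowest wild type (359 to 458 CPM) did not meet. Such intervals cover counting error only. The fold was -0.96 ± 0.25, which is 1.95-fold lower, with a 95% interval of -1.51 to -0.42 (edgeR unadjusted p = 0.00266, adjusted p = 0.139).

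This call depends on the setting. The fold stayed negative under each of 15 alternatives, from -1.14 to -0.73, while the adjusted p ran from 0.0011 to 0.484. It was under 0.05 without wild type 1 (edgeR adjusted p = 0.0011), without the filter on low counts (0.0167), with the replicate number as a block (0.0195) and with the crossed pairing of the numbers (0.0353). Without wild type 2 it was 0.129, with a fold of -0.73, and DESeq2 gave 0.185. Malat1, a long noncoding RNA retained in the nucleus, moved along with it in these libraries: 19039 and 10721 CPM in the mutants against 20876 and 29112. This Malat1 difference was not particular to thick ascending limb. Both mutants were lower in each tested class except proximal tubule and distal convoluted and connecting tubule, where the groups overlapped. In T cells, for example, Malat1 counted 11041 and 9122 CPM in the mutants against 14046 and 20768. Summed over 10 genes, B cell markers stood in thick ascending limb at 94.6 and 211 CPM in the mutants against 256 and 3189 in the wild types, with 2 of 10 higher in mutants. The 10 macrophage markers summed to 155 and 100.4 against 364 and 10.0 CPM, and the class's own 6 markers, all detected, to 25193 and 28552 against 29970 and 22594. Thin limb markers, with 2 of 4 at 0, summed to 4.91 and 9.62 against 19.6 and 36.4 CPM without overlap. The 12 proximal tubule markers summed to 726 and 298 against 671 and 1302, with 1 of 12 higher in mutants, and the 8 monocyte markers to 49.1 and 11.8 against 113 and 41.4, with 0 of 8 higher. Their part in the Ppargc1a difference was not tested.

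In the other tubule classes Ppargc1a leaned the same way and did not pass. Distal convoluted and connecting tubule counted 58.7 and 73.9 CPM in the mutants against 81.1 and 130.4, without overlap, for a fold of -0.46 ± 0.30 (edgeR adjusted p = 0.983). Without wild type 2 the fold was -0.28. Coarser clusters, at resolution 0.5, gave a class of this name with other cells, at least 153 in each library against 93, and a fold of -1.18 there (edgeR adjusted p = 0.263). Intercalated cells, too few to test, had 132 and 124 against 127 and 291 CPM, so that only wild type 2 was high. Proximal tubule had 104 and 58.4 against 92.2 and 221 CPM, with overlapping groups and a fold of -0.69 ± 0.45 (edgeR adjusted p = 0.681). Here 1 library set the size: the fold was -0.19 without wild type 2 and -1.03 without wild type 1 (edgeR adjusted p = 0.0505).

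**Figure D4:**
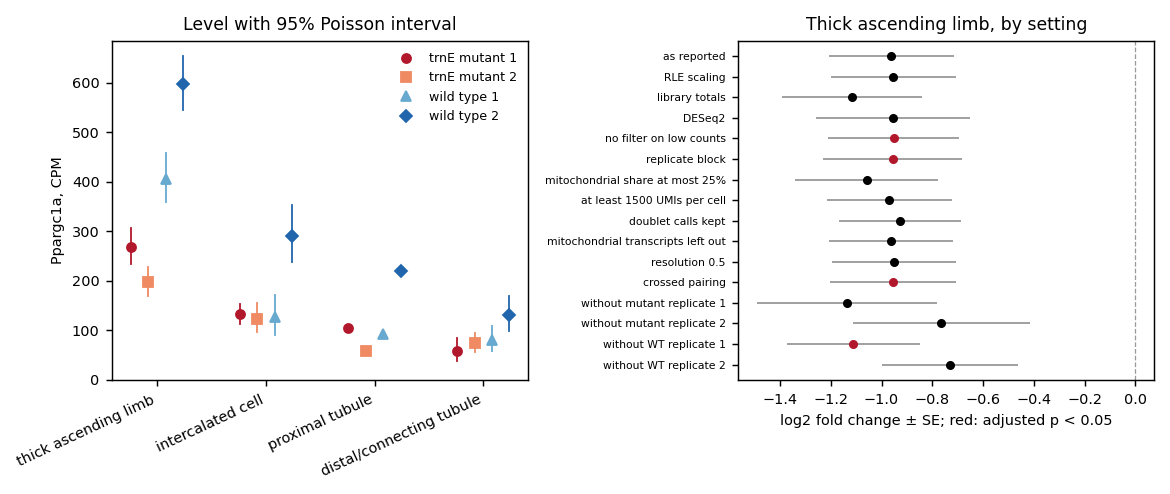
Left, Ppargc1a level (CPM, y axis) in the 4 tubule classes, with 1 point per library and its 95% Poisson interval. Right, its log2 fold change in thick ascending limb (x axis) with its SE under each setting (y axis), red where the adjusted p was under 0.05: every fold is negative, from -1.14 to -0.73, and 4 settings are red.

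Within proximal tubule, Ppargc1a was concentrated in cells rich in Malat1. Of 8 proximal tubule clusters, 3 had over 10000 CPM of Malat1 (46399 to 72911), and 5 had 429 to 1410. In the Malat1-rich set Ppargc1a counted 199 and 227 CPM in the mutants against 217 and 333 in the wild types, and in the remaining clusters 31.1 and 25.4 against 35.2 and 49.9. The rich set was higher in 4 of 4 libraries, by 6.89-fold on the means (244 ± 60.4 against 35.4 ± 10.5 CPM, SD, n = 4 libraries). In the remaining clusters both mutants lay below both wild types, and in the rich set mutant 2 lay above wild type 1. The share of all genes with both mutants lower was not computed for these clusters. In the whole class it was 22.8%, so this order is not read as a result about Ppargc1a. The rich set took 43.6%, 16.4%, 31.3% and 60.4% of the proximal tubule UMIs of mutant 1, mutant 2, wild type 1 and wild type 2, the same order of libraries as that of Ppargc1a in the whole class. The dividing level of 10000 CPM was chosen after the values were seen. These clusters were formed from the same cells, so no test is given.

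The other members divided between the same 2 sets. Polg, Polrmt, Lrpprc and Twnk were higher in the Malat1-rich set in 4 of 4 libraries, by 2.24-fold (17.7 ± 3.14 against 7.92 ± 1.58 CPM, SD, n = 4), 2.19-fold, 1.84-fold (107 ± 15.3 against 58.3 ± 6.13 CPM) and 1.55-fold. Slirp, Ssbp1 and Tefm were lower there in 4 of 4 libraries: Slirp ran from 38.1 to 86.1 CPM against 93.1 to 155 (n = 4), with means of 58.8 and 129, 2.19-fold less. Tfam and Tfb2m were lower in 3 of 4. Lrpprc and Slirp, partners in 1 complex, thus lay on opposite sides of this divide. The sets differ in more than Malat1. The rich clusters had median depths of 12980 to 16330 UMIs per cell, against 2944 to 5595 in the remaining clusters. Among the latter, 1 had a median of only 0.68% mitochondrial UMIs and the highest pooled Slirp, at 175 CPM. The part of these differences in the divide was not tested.

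**Figure D5:**
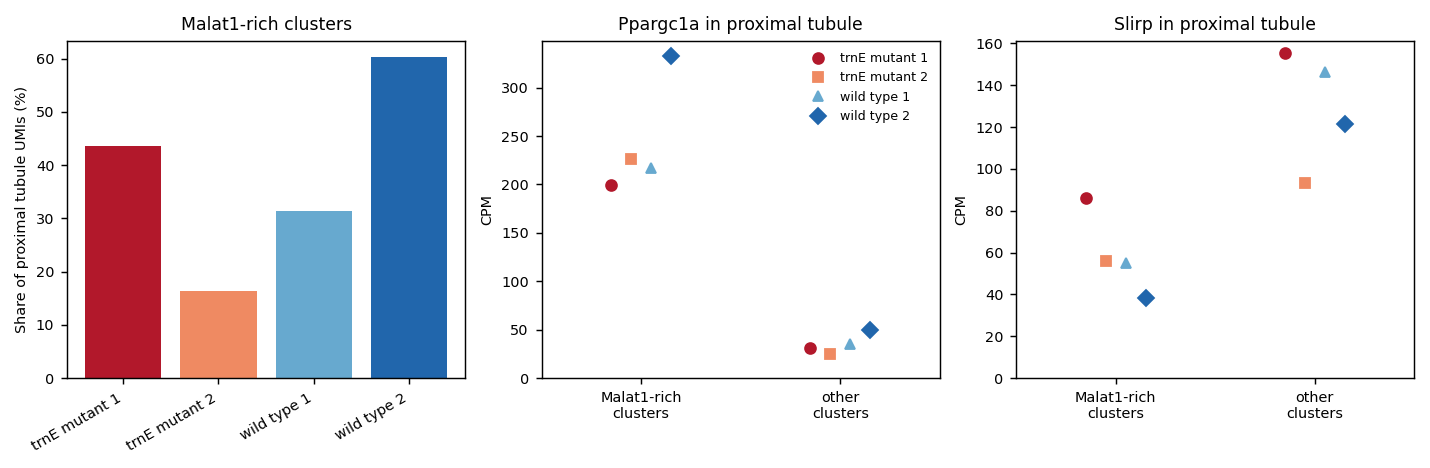
Left, share of the proximal tubule UMIs of each library (y axis, %) in the 3 Malat1-rich clusters. Middle and right, Ppargc1a and Slirp levels (CPM, y axis) in those and in the remaining 5 clusters, with 1 point per library: Ppargc1a is higher and Slirp lower in the Malat1-rich clusters of each library.

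Whole-library levels mix these genes with the makeup of the sample, and fewer cells of a type cannot be told apart there from less RNA per cell. With the 9 classes weighted equally, the mutant minus wild-type difference in mean log2(CPM + 1) was -0.45 for Lrpprc, -0.34 for Twnk, -0.30 for Tfam and -0.25 for Tfb2m. In these 4 genes both mutants lay below both wild types, and the exact two-sided permutation p was 0.33, the smallest that 2 libraries against 2 allow. The share of all genes that did so was not computed on this scale. Within single classes it was 22.5% to 33.8%, so the 4 are not read as a result about the members. The difference was -0.49 for Ppargc1a, -0.36 for Polg, -0.09 for Slirp, 0.11 for Ssbp1, 0.21 for Polrmt and 0.24 for Tefm, with overlapping groups (exact permutation p = 0.667 to 1). These values are on the CPM scale, which leans lower in mutants as described above.

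No member had a genotype fold that differed between proximal tubule and T cells, the classes compared for this. All 10 were in the fit, 0 passed, and 1 of 14435 genes did (0.00693%, edgeR, with 0 members at an unadjusted p under 0.05). Ppargc1a had too few counts to be tested in T cells alone, at 0.309 to 5.41 CPM there. It passed the count filter of this fit through proximal tubule, so its difference of 0.49 is not read. For the other 9 members the difference of the folds, proximal tubule minus T cells, lay between -0.38 (Twnk) and 0.40 (Lrpprc). The 95% interval for Lrpprc was -0.47 to 1.26.

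The wider machinery was read from a list of 71 genes for mitochondrial DNA maintenance, nucleotide supply, transcription and termination, RNA processing, and nuclear regulation. In each of the 9 classes 0 of the genes tested passed in either direction (edgeR, adjusted p), out of 70 in proximal tubule, 68 in T cells and 45 in thick ascending limb, with 5, 2 and 4 at an unadjusted p under 0.05. In those classes 9.25%, 3.58% and 17.2% of all genes reached that level. The counts are therefore not read as a result about the list. In proximal tubule the smallest p of each group belonged to Primpol, a primase-polymerase (-1.13), Nme4, a nucleoside diphosphate kinase (0.76), Mterf1b of the termination factor family (-0.94), Prorp, the nuclease of mitochondrial RNase P (-0.62), and Ppargc1b, the coactivator most like Ppargc1a (-0.92). Ppargc1b counted 26.6 and 19.7 CPM in the mutants against 37.5 and 66.4, with both mutants lower (edgeR adjusted p = 0.360). In T cells the genes were Dna2 (-0.96), Slc25a33 (-0.72), Mterf4 (0.75), Hsd17b10 (0.76) and Nrf1 (-0.42), each with an edgeR adjusted p of 0.748.

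The nuclear regulators are the 16 genes nearest to Ppargc1a in role, of which 7 to 15 were tested by class. Their median fold was below 0 in 9 of 9 classes, from -0.32 in macrophages to -0.05 in distal convoluted and connecting tubule, beside medians of -0.01 to 0.01 for all genes. The 9 classes come from the same 4 libraries and are not repeats. The medians of the other groups ran from -0.23 to 0.51 for transcription factors and termination, with 8 of 9 classes above 0 and 2 to 7 genes tested, from -0.26 to 0.40 for nucleotide supply, from -0.07 to 0.34 for replication and maintenance and from -0.06 to 0.09 for RNA processing. These medians are descriptions without a test. Of the 13 regulators tested in thick ascending limb, 5 had positive folds and 2 had larger folds than Ppargc1a. These 2 are named after their values were seen. Esrrb, an estrogen-related receptor, counted 61.4 and 38.5 CPM in the mutants against 190 and 127. Ppara, a fatty acid receptor that PPARGC1A coactivates, counted 12.3 and 9.62 against 33.1 and 60.3. Both mutants were lower for each, with folds of -1.54 ± 0.31 and -1.95 ± 0.39 (edgeR adjusted p = 0.0813 and 0.0886). Esrra, the relative of Esrrb, overlapped between the groups there, at 43.0 and 56.6 against 61.7 and 49.0 CPM (0.00 ± 0.29).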

How the data were processed

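Per the file headers, the authors' matrices hold whole-number UMI counts per gene and barcode, not normalized, from Cell Ranger 7.0.0 (mutants) and 7.1.0 (wild types), so program version and genotype cannot be told apart. The submitters' processing notes name build mm10. The members and gene lists were chosen with earlier results of these data known. Barcodes under 200 genes or 500 UMIs, or above 50% mitochondrial UMIs, were dropped, as were Scrublet doublet calls (1.94% to 2.96% per library), and clusters (scanpy 1.11.5, 2000 variable genes, 30 components, Leiden resolution 1) named from markers. Deposited counts were summed per library and class and tested with edgeR 4.0.16 (quasi-likelihood, TMM, filterByExpr, Benjamini-Hochberg over all genes of a class, threshold 0.05), checked on simulated counts. DESeq2 1.42.0, other scalings and filters, a replicate block and each library left out were alternatives. Named genes were all members, list genes past the threshold, otherwise the smallest p per list in proximal tubule and T cells, and the 5 genes most correlated with Ppargc1a. Member and class pairs followed through the alternatives were chosen after seeing their values. The labels give no processing days. Levels used a pseudocount of 1 CPM where logged.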

Additional observations from a re-analysis of the deposited data

How the results depend on the processing

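Of the 74 gene and class pairs, 24 kept the sign of their fold under every alternative, 26 changed it under an alternative that kept all libraries and 50 under any, 21 of them with library totals in place of TMM. In thick ascending limb 1 member, Ppargc1a, passed without the filter on low counts, 1 with the replicate block and 1 with the crossed pairing, against 0 as reported. With each library left out in turn, 0 to 1 members passed in thick ascending limb and 0 to 1 in macrophages, where the 1 was Tefm without wild type 1, since wild type 2 has 0 Tefm UMIs there. No member passed elsewhere or in the test between proximal tubule and T cells. With 1 library left out, the Slirp fold in proximal tubule ran from -0.16 (without wild type 2) to 1.00. With classes weighted equally, the difference ran from -0.037 (without mutant 2) to 0.45 for Polrmt, -0.0096 (without mutant 1) to 0.48 for Tefm, -0.36 to 0.18 (without mutant 2) for Slirp, and -0.096 (without mutant 1; -0.091 without wild type 1) to 0.31 for Ssbp1. Counts of all genes called moved more than those of members: 97 in proximal tubule as reported, 0 with library totals, 145 with DESeq2 and 432 without the filter; 15, 8, 29 and 390 in thick ascending limb. Without wild type 1 they were 2317 and 707, and without wild type 2 they were 0 and 225. In macrophages 2 higher and 0 lower became 3 higher and 28 lower with library totals. The replicate numbers share only a number: same-numbered libraries correlated at -0.21 to 0.30 over the classes, and the block moved the calls in proximal tubule from 97 to 231, in thick ascending limb to 310, in monocytes from 2 to 423 and in macrophages from 2 to 664, changing no other member call. The crossed pairing, added after seeing the data, called 476 in proximal tubule. The cause of these shifts was not tested. Depth limits Polrmt, Twnk and Tefm most, with under 10 CPM in many immune classes.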
